A study of Homo sapiens with 9 samples.

Results

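The region described here is the 3.1 Mb of human chromosome 8 from 95900001 to 99000000 (hg19) that holds GDF6, SDC2 and CPQ. It was chosen by the measured values of these same libraries: between 96750001 and 98050000, the HCT116 reads are placed differently among the 3 libraries of a set than the RPE1 reads are. Those 1.3 Mb are called the core below, and the whole 3.1 Mb the stretch. The stretch holds 3100 of the 3036315 bins of 1 kb on the autosomes and chromosome X, or 155 of 141730 usable windows of 20 kb. Since the contrast of the lines chose the region, its values are given as a description and without a test, and the 2 RPE1 sets give the only replicate spread.

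Nascent DNA was counted in HCT116, a colorectal carcinoma line with 1 set of libraries, and in RPE1, telomerase-immortalised retinal pigment epithelial cells with 2 sets. Each set comes from growing cells pulsed with the thymidine analogue EdU and sorted into 3 fractions, early, mid and late S phase, and neither line carried any other treatment. The 9 libraries held from 6170299 to 22930078 reads. The tables have no column names, so no library can be given to a fraction, and A, B and C mean only the position of a column in its table. The word "later", used of HCT116 when the region was proposed, therefore cannot be checked against the labels, and nothing is called early or late here. Sets are compared by column position, and it is not stated that a position holds the same fraction in every set. Over 56728 windows of 50 kb, log2 scaled reads of HCT116 correlated with RPE1 sets 1 and 2 at r = 0.836 and 0.842 in A. In B these values were 0.523 and 0.541, and in C 0.652 and 0.668. Position B carries a further limit: B in RPE1 set 1 correlated at 0.703 with A in RPE1 set 2 and at 0.640 with B. Position B may therefore not match between sets. Separate cultures for the RPE1 sets are not stated, so their spread may be technical. In the HCT116 labels, mid and late S carry the number 2 and early S carries none, and a shared sort is not stated.

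Replication timing is the order in which parts of a genome are copied during S phase. Neighbouring origins fire at similar times, so that long domains are copied together, and between domains of different timing lie transition regions that are crossed more gradually. Timing is set anew in each cell cycle and differs between cell types over part of the genome, often in step with gene activity and chromatin state. GDF6 encodes a ligand of the bone morphogenetic protein family with roles in the developing skeleton and eye. SDC2 encodes syndecan-2, a heparan sulfate proteoglycan of the cell surface that binds growth factors and matrix, and methylation of its promoter is known as a marker of colorectal cancer. CPQ encodes a secreted carboxypeptidase. In the RefSeq order of genes on GRCh38.p14, where all 3 genes were matched by symbol, 3 further protein-coding genes lie between GDF6 and SDC2. These are UQCRB, which encodes a subunit of mitochondrial respiratory complex III, MTERF3, a regulator of mitochondrial transcription, and PTDSS1, a phosphatidylserine synthase. CFAP418 is the protein-coding neighbour before GDF6, and TSPYL5 the one after CPQ.

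Over the core, library C held the most scaled reads in HCT116 and library B the most in both RPE1 sets. After scaling the libraries of a set to equal totals, library C held 49.2% of HCT116 reads, against 13.5% in RPE1 set 1 and 21.0% in RPE1 set 2. HCT116 was thus 32.0 percentage points above the RPE1 mean of 17.2% ± 5.30 (SD, n = 2). Library A held 17.8% in HCT116, against 34.3 and 33.6% in RPE1 sets 1 and 2, and library B held 33.0% in HCT116, against 52.3 and 45.5%. These shares rest on 17209 HCT116 reads, and on 10132 and 23028 reads of the RPE1 sets. The 95% interval of the library C share was 48.5 to 50.0% in HCT116, 12.9 to 14.03% in RPE1 set 1 and 20.4 to 21.5% in RPE1 set 2. It is a Wilson interval carried through the scaling, with the ratio of the other libraries held, and like all intervals here it covers counting error only. The gap between the lines was larger than the gap between the RPE1 sets for A and C, and for B it was 15.9 points against 6.79 points between the RPE1 sets.

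Against the autosomal mean of each library, the lines differed in C, and the directions seen in the A and B shares were not repeated. Library C stood at 2.26 times that mean over the core in HCT116, and at 0.334 and 0.639 times in RPE1 sets 1 and 2. Library A stood at 0.808 times in HCT116, between the 0.806 and 0.979 times of the RPE1 sets. Library B stood at 1.51 times in HCT116, above the 1.24 and 1.34 times of the RPE1 sets, although its share was lower. These levels include copy number, which is given further on, while shares within a set are less exposed to it.

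**Figure D1:**
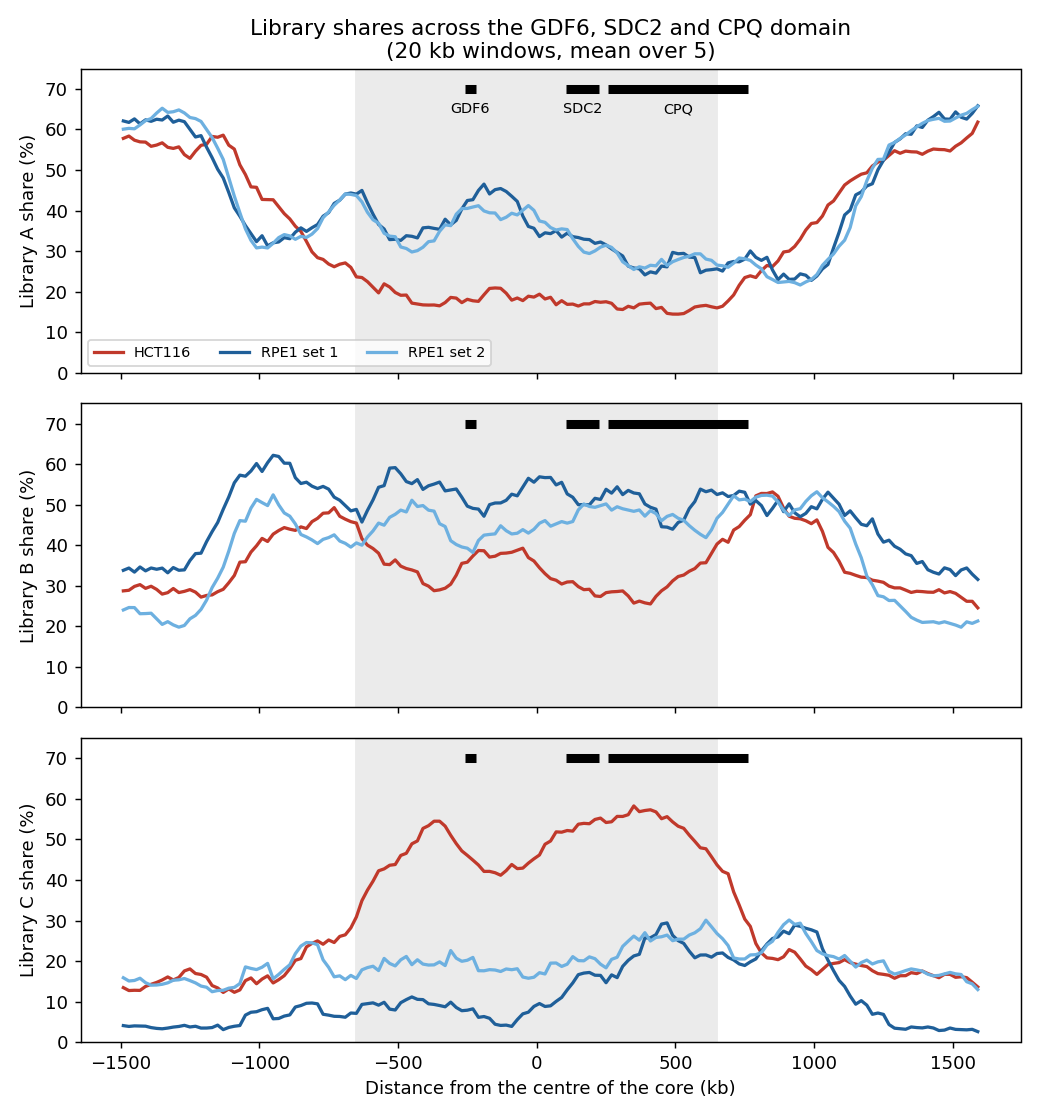
Share of scaled reads in libraries A, B and C (rows, %) by distance from the centre of the core (kb), for HCT116, RPE1 set 1 and RPE1 set 2, as means over 5 adjacent windows of 20 kb. The grey band is the core and black bars are the gene spans; in the core the HCT116 line lies below both RPE1 lines for A and above both for C, where its core share is 49.2%, and in the flanks A leads in all 3 sets.

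GDF6 had the largest library A share of the 3 genes in both RPE1 sets. In HCT116 its A share was the smallest in value, with intervals that overlapped among the 3 genes. Its position is given only as near 97.16 Mb, so it was read over 40 kb around that point, from 97140001 to 97180000, which is longer than the gene. There were 532 reads in HCT116, and 301 and 711 in RPE1 sets 1 and 2. Library C took 44.2% of them in HCT116 (95% interval 39.8 to 48.8%), against 4.88% in RPE1 set 1 (3.25 to 7.25%) and 14.1% in RPE1 set 2 (11.5 to 17.0%). Library A took 14.3% in HCT116, against 45.0 and 44.4% in the RPE1 sets. The difference in A was therefore -30.4 points from an RPE1 mean of 44.7% ± 0.438 (SD, n = 2), and the difference in C 34.7 points from 9.46% ± 6.49. Library B took 41.5% in HCT116, against 50.1 and 41.6% in the RPE1 sets, and the 95% interval of HCT116, 37.4 to 45.7%, overlapped both RPE1 intervals. Over GDF6 the gap between the lines in A and C was larger than that between the RPE1 sets, and in B it was smaller.

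The 326 kb between GDF6 and SDC2, where the gene order places UQCRB, MTERF3 and PTDSS1, had the same direction. Library C held 45.5% of 4534 HCT116 reads, against 7.25 and 18.3% in RPE1 sets 1 and 2. Library A held 18.8% in HCT116, against 39.4 and 38.2%. No coordinates of these 3 genes on hg19 were used, so the value belongs to the interval and not to any one of them.

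SDC2, from 97506001 to 97624000, had the largest library C share in HCT116 of the 3 genes, each taken as a whole. It was 53.8% of 1486 reads in HCT116 (51.2 to 56.3%), against 16.8% of 915 reads in RPE1 set 1 (14.8 to 19.0%) and 19.9% of 2149 reads in RPE1 set 2 (18.2 to 21.7%). The difference was 35.4 points from an RPE1 mean of 18.3% ± 2.21 (SD, n = 2), and HCT116 lay far outside the RPE1 range. Library A took 17.0% in HCT116, against 33.7 and 31.0% in the RPE1 sets. Library B took 29.3% in HCT116, against 49.5 and 49.1%. In both A and B the gap between the lines at SDC2 was larger than that between the RPE1 sets. The lower-coordinate part of SDC2, its first 59.0 kb, had 51.7% of reads in C in HCT116, against 14.9 and 18.8% in RPE1, and the remaining 59.0 kb had 55.7%, against 18.4 and 21.1%. The 95% intervals of these parts overlapped within each set.

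CPQ is the longest of the genes, from 97657001 to 98160000, and it runs out of the core at its high-coordinate end. Library C held 50.4% of its 6498 reads in HCT116 (49.2 to 51.7%), against 22.2% of 3935 reads in RPE1 set 1 (21.1 to 23.4%) and 24.98% of 8376 reads in RPE1 set 2 (24.0 to 25.95%). The difference of 26.8 points from an RPE1 mean of 23.6% ± 1.96 (SD, n = 2) was smaller than at GDF6 or SDC2. Library A took 16.7% in HCT116, against 27.3% in each RPE1 set (RPE1 SD 0.016 points). Library B took 32.9% in HCT116, against 50.5 and 47.7% in the RPE1 sets.

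Read in 5 equal parts from the low coordinate, CPQ had a C share in HCT116 that was lowest at its high-coordinate end. The HCT116 shares of C were 55.7, 57.2, 53.4, 47.8 and 37.2%. In RPE1 set 1 the same parts had 19.4, 25.1, 24.7, 21.4 and 20.3%, and in RPE1 set 2 they had 23.4, 25.1, 25.3, 30.2 and 20.8%. The HCT116 share of the last part, with a 95% interval of 34.4 to 40.1%, lay below those of its other parts, and it was still 16.7 points above the RPE1 mean. Library B in HCT116 held 43.6% in the last part and 28.4% in the first. The gap between the lines was thus not even along the gene, and it was smallest in the part that lies beyond the core.

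Set side by side, the 3 genes were ordered differently in the lines. In HCT116 the C share was highest at SDC2, then CPQ, then GDF6. The HCT116 intervals of SDC2 and CPQ overlapped, and those of CPQ and GDF6 did not. The part of CPQ inside the core had 53.55% in C in HCT116 (52.15 to 54.95%), close to the 53.76% of SDC2. The order of SDC2 and CPQ in HCT116 therefore holds only for the whole genes. In RPE1 the order was CPQ, SDC2, GDF6 in both sets, with intervals that did not overlap between neighbours in either set. Library A ran the other way in RPE1, highest at GDF6 and lowest at CPQ in both sets. In HCT116 the A shares of the 3 genes, 14.3, 17.0 and 16.7% at GDF6, SDC2 and CPQ, had overlapping intervals.

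**Figure D2:**
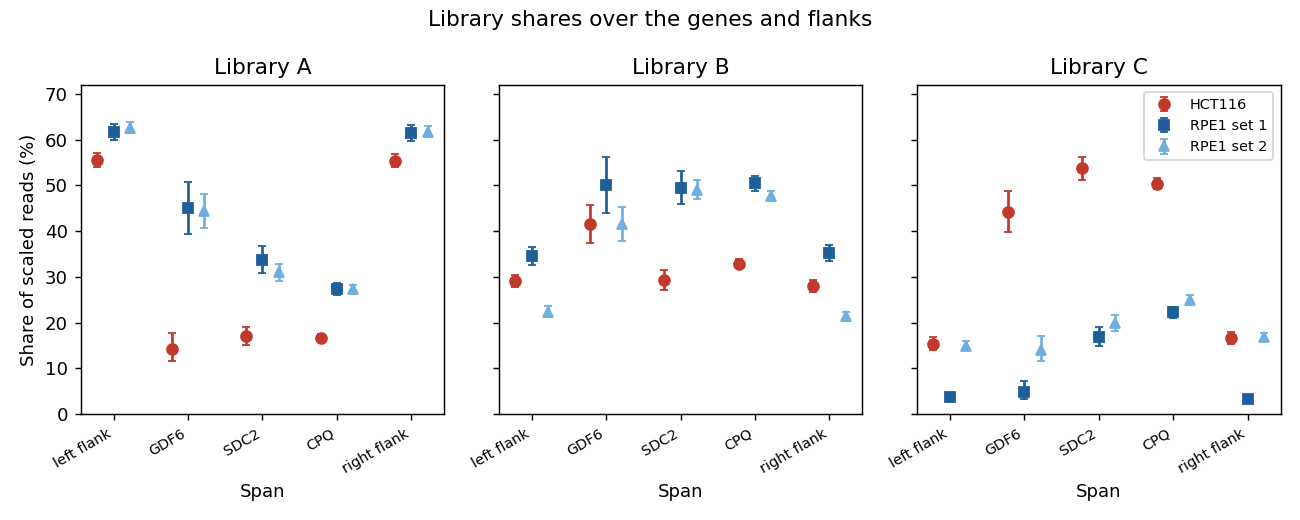
Share of scaled reads (%) in libraries A, B and C over the left flank, GDF6, SDC2, CPQ and the right flank, with HCT116 left of RPE1 set 1 and RPE1 set 2 in each span. Bars are 95% intervals of counting error; over the 3 genes HCT116 has 14.3 to 17.0% in A and 44.2 to 53.8% in C, while both RPE1 sets have more in A and less in C.

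The profile inside the core was uneven in both lines, and part of the unevenness was shared. Averaged over 5 windows of 20 kb, the HCT116 share of C had a high of 54.5% near 97.05 Mb, a low of 41.2% near 97.27 Mb and a second high of 58.3% near 97.75 Mb. The low lies between GDF6 and SDC2. Both RPE1 sets also had a low of C in that interval, of 3.90% near 97.31 Mb in set 1 and 15.8% near 97.37 Mb in set 2, and rose to 29.4 and 30.1% at the high-coordinate side of the core. Library A in RPE1 sets 1 and 2 had highs of 45.0 and 44.1% near 96.77 and 96.71 Mb, with 96.71 Mb just before the core, and of 46.5 and 41.2% near 97.21 and 97.37 Mb. The HCT116 high of A in the same search range as the second pair was 20.9%, near 97.25 Mb. The A share of 50 kb windows in the core spread with an SD of 2.35 points in HCT116, against 6.59 and 5.43 points in RPE1 sets 1 and 2.

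As a description over the 26 windows of 50 kb in the core, the C share of HCT116 correlated with RPE1 sets 1 and 2 at r = 0.633 and 0.490, and the RPE1 sets with each other at 0.790. For A these values were 0.419 and 0.561 with HCT116, and 0.814 between the RPE1 sets. Neighbouring windows share a profile and each value carries its own counting error, so these are not relations of independent points. For B the RPE1 sets correlated at 0.065 over the core, and no shape of B inside the core is read from these data.

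All windows of the core differed in the same direction. A 20 kb window was called where HCT116 lay at least 10 percentage points above both RPE1 sets, or at least 10 below both. In the stretch, 72 of 155 windows (46.5%) were called higher in C, against 8.54% of all windows of the autosomes and X, and these 72 windows include all 64 that lie wholly in the core. Without RPE1 set 2 the count was 115, and without RPE1 set 1 it was 72. The background of 8.54% is for calls against both sets and does not apply to these counts. The core was chosen on this contrast, so the background is given beside the count and nothing further is read from it. The 72 windows ran from 96660001 to 98140000. A single window was called lower in C, from 98380001 to 98400000, where the background was 17.5%. For library A, 57 windows of the stretch were called lower in HCT116, against a background of 11.8%, and 48 of the 64 windows of the core were among them. Another 11 windows were called higher in A, against a background of 13.3%, and 0 of these were in the core. With 50 kb windows, 29 of 62 were called higher in C and 0 lower, against backgrounds of 8.05 and 17.3%. Without RPE1 set 2, 46 of the 50 kb windows were called higher, and 1 lower, and the backgrounds against both sets do not apply to these counts.

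By gene, all 6 windows of SDC2, both windows of GDF6 and 24 of the 25 windows of CPQ were called higher in C. For A the counts of windows called lower were 5 of 6 at SDC2, 2 of 2 at GDF6 and 10 of 25 at CPQ. The library that held most scaled reads was C in 25 of 26 core windows of 50 kb in HCT116, and B in 25 and 23 of them in RPE1 sets 1 and 2. Over all windows of 50 kb, C led 34.2% in HCT116, and B led 30.4 and 31.1% in RPE1 sets 1 and 2. In 23 of 26 windows HCT116 was led by C and both RPE1 sets by B, a pattern of 4.83% of all 56728 windows.

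**Figure D3:**
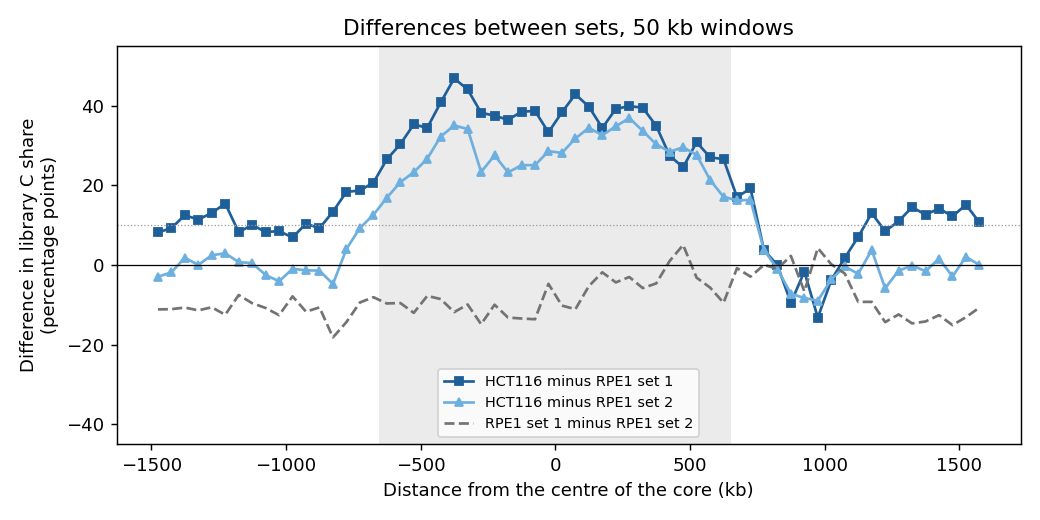
Difference in library C share (percentage points) between HCT116 and each RPE1 set, and between the RPE1 sets (dashed), for 50 kb windows by distance from the centre of the core (kb). The dotted line marks 10 points and the grey band the core; over the core HCT116 lay 16.9 to 46.9 points above an RPE1 set, while the RPE1 sets differed by -14.9 to 5.03 points.

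The windows at the ends of the core show how the region was bounded. Just inside its start, from 96750001 to 96800000, C held 32.9% in HCT116, against 6.32 and 16.0% in RPE1 sets 1 and 2, and just outside, from 96700001 to 96750000, it held 28.8%, against 8.12 and 16.2%. Just inside its end, from 98000001 to 98050000, C held 45.4% in HCT116, against 18.8 and 28.3%, and just outside, from 98050001 to 98100000, it held 42.1%, against 25.03 and 25.8%. The windows outside were still called higher in C, so the contrast fades over the neighbouring windows and the named ends are not sharp.

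On both sides of the stretch the lines were led by the same library. In the outer 300.0 kb at the low-coordinate side, from 95900001 to 96200000, A held 55.6% in HCT116, against 61.7 and 62.6% in RPE1 sets 1 and 2. At the high-coordinate side, from 98700001 to 99000000, it held 55.4% in HCT116, against 61.5 and 61.8%. C held 15.4 and 16.6% there in HCT116, which lay close to the 15.0 and 16.8% of RPE1 set 2 and above the 3.73 and 3.28% of RPE1 set 1. The RPE1 sets were therefore 11.2 and 13.6 points apart in C in the flanks, and the HCT116 difference in C there did not exceed that. No 20 kb window of either flank was called higher or lower in C. In A, HCT116 was -6.61 and -6.21 points from the RPE1 means in the flanks, where the RPE1 sets differed by -0.907 and -0.315 points.

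The first descent of A from the flanks was longer in HCT116. On the low-coordinate side the smoothed A share passed the middle between its flank level and its lowest level at 96.529 Mb in HCT116, and at 96.279 and 96.298 Mb in RPE1 sets 1 and 2. The HCT116 position lay 240.5 kb further into the stretch than the RPE1 mean, where the RPE1 sets were 19.0 kb apart. On the high-coordinate side it was passed at 98.370 Mb in HCT116, and at 98.542 and 98.556 Mb in RPE1, a difference of -179.0 kb, with the RPE1 sets 14 kb apart. The distance over which A went through the central 50 percent of its range was 295 kb on the low side in HCT116, against 105 and 80.9 kb in RPE1, and 297 kb on the high side, against 169 and 127 kb. The profiles were averaged over 100 kb, so the low-side distances of RPE1 are near the limit of what they resolve. Each position is the first crossing met from the flank, and the RPE1 profiles were not a single descent. Further in on the low side, their A share rose again to 45.0 and 44.1%, near 96.77 and 96.71 Mb in sets 1 and 2. The low-side positions and distances of RPE1 therefore describe its first fall only. The lowest level differs between the lines, which moves the middle. At a fixed A share of 50% the positions lay closer, at 96.341 Mb in HCT116 and 96.252 and 96.282 Mb in RPE1 on the low side, and 98.598 Mb in HCT116 and 98.630 and 98.607 Mb in RPE1 on the high side. The last difference, -20.5 kb, was within the 23 kb between the RPE1 sets, and it was -57.5 kb with profiles averaged over 3 windows.

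In a run of windows on each side of the core, library A was higher in HCT116 than in both RPE1 sets. From 96200001 to 96550000 library A held 47.8% in HCT116, against 39.4 and 40.1% in RPE1 sets 1 and 2, and HCT116 was above both in all 7 windows of 50 kb. From 98250001 to 98650000 it held 40.9% in HCT116, against 33.5 and 32.5%, again in all 8 windows. These runs were picked out by that direction and do not fill the spans between flank and core. Over the whole span from 96200001 to 96750000, A held 39.9% in HCT116, against 39.7 and 39.6% in the RPE1 sets. Of its 27 windows of 20 kb, 4 were called higher in A and 6 lower. Over the whole span from 98050001 to 98700000, A held 36.2% in HCT116, against 34.5 and 33.0%. Of its 33 windows, 7 were called higher in A and 1 lower. Over all windows of the autosomes and X, 13.3% were called higher in A and 11.8% lower, and nothing further is read from these counts. In the low-side run, C held 14.9% in HCT116, between the 5.97 and 16.2% of RPE1 sets 1 and 2. The 100 kb from 98300001 had 32.8% in A and 21.0% in C in HCT116, against 24.3 and 28.1% in RPE1 set 1 and 21.6 and 29.6% in RPE1 set 2. The smoothed A share of RPE1 was lowest in this part of the stretch, beyond CPQ and the core, at 22.8% near 98.39 Mb in set 1 and 21.6% near 98.35 Mb in set 2. The HCT116 profile, in 20 kb windows, had its lowest A share and highest C share over CPQ, and the RPE1 profiles had their lowest A share beyond its high-coordinate end.

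Single 20 kb windows give the extremes with wide intervals. The highest C share of HCT116 was in CPQ, from 97780001 to 97800000, at 64.6% of 263 reads (58.9 to 69.9%), against 18.6% of 177 reads (14.2 to 24.0%) in RPE1 set 1 and 22.8% of 322 reads (18.4 to 27.8%) in RPE1 set 2. The highest C share of RPE1 set 1 was from 98360001 to 98380000, where C held 15.0% in HCT116, against 35.5 and 23.2% in RPE1 sets 1 and 2. That of RPE1 set 2 was from 98300001 to 98320000, with 27.8% in HCT116, against 26.2 and 37.6%. Both lie outside the core. At the first, the HCT116 interval (10.6 to 20.9%) overlapped that of RPE1 set 2 (18.8 to 28.2%) and not that of RPE1 set 1 (28.5 to 43.1%). At the second, the HCT116 interval overlapped those of both RPE1 sets.

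The RPE1 sets were close in A and apart in C. Over the 62 windows of 50 kb, RPE1 set 1 minus RPE1 set 2 ran from -8.32 to 8.92 points in A, with a median of -0.225, and from -18.2 to 5.03 points in C, with a median of -9.63. Over all windows of the genome the median difference in C was -2.42 points, with quartiles of -10.9 and 6.65. HCT116 was set against both sets in every call, and values for A, on which the RPE1 sets were closer, are given beside those for C. On a scale that takes out the range of each set, the genome-wide percentile of C, core windows averaged 74.5 in HCT116, against 36.4 and 32.1 in RPE1 sets 1 and 2.

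**Figure D4:**
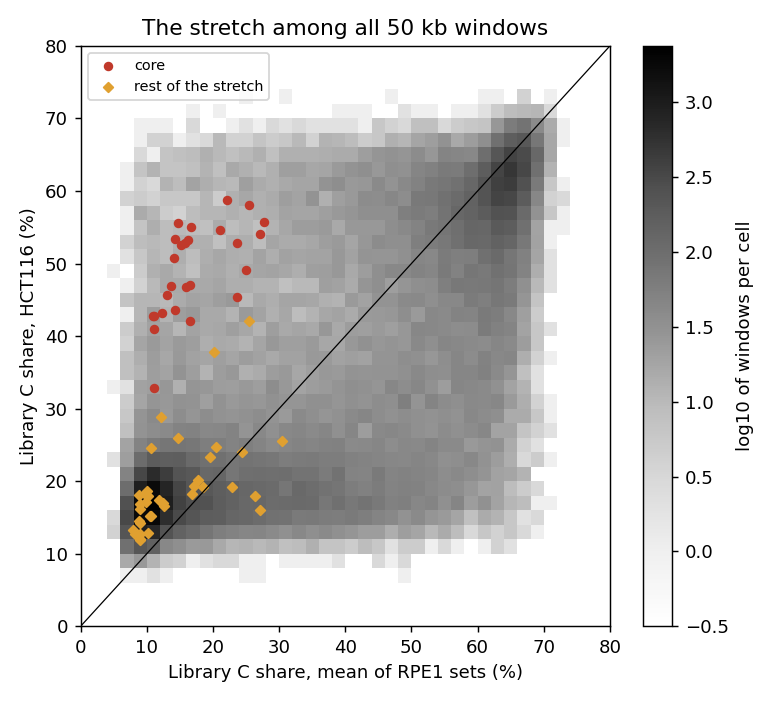
Library C share (%) of HCT116 against the mean of the RPE1 sets for all 50 kb windows (grey, log10 of windows per cell), with core windows as red circles and the rest of the stretch as orange diamonds. Core windows lie at 32.9 to 58.8% in HCT116, above the line of equal shares.

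The stretch lies in a part of chromosome 8 with more reads in HCT116. Depth was read against the autosomal windows of the same set with a like C share, since raw depth moves with the profile. It was 1.45 times the autosomal level in HCT116, against 0.924 and 0.958 times in RPE1 sets 1 and 2, a ratio of 1.54 ± 0.039 (SD over the RPE1 sets, n = 2). In summed reads the ratio was 1.62 ± 0.37, and its values against RPE1 sets 1 and 2 were 1.88 and 1.37, so that the RPE1 sets themselves differed. The 5 Mb below the stretch had a matched ratio of 1.45 ± 0.0076 and the 5 Mb above it 1.40 ± 0.041, against 0.995 ± 0.0051 over the first 40 Mb of the chromosome. GDF6, SDC2 and CPQ had matched ratios of 1.66 ± 0.028, 1.56 ± 0.020 and 1.56 ± 0.0050. More reads were thus present over the neighbouring megabases too. Whether all copies of the region contributed alike to the shares cannot be told apart in these counts, and the part of copy number in the shares was not tested. Coverage was even enough to read all of the stretch: 0 of 3100 bins were without reads in all sets and 7 were without reads in at least 1 set.

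**Figure D5:**
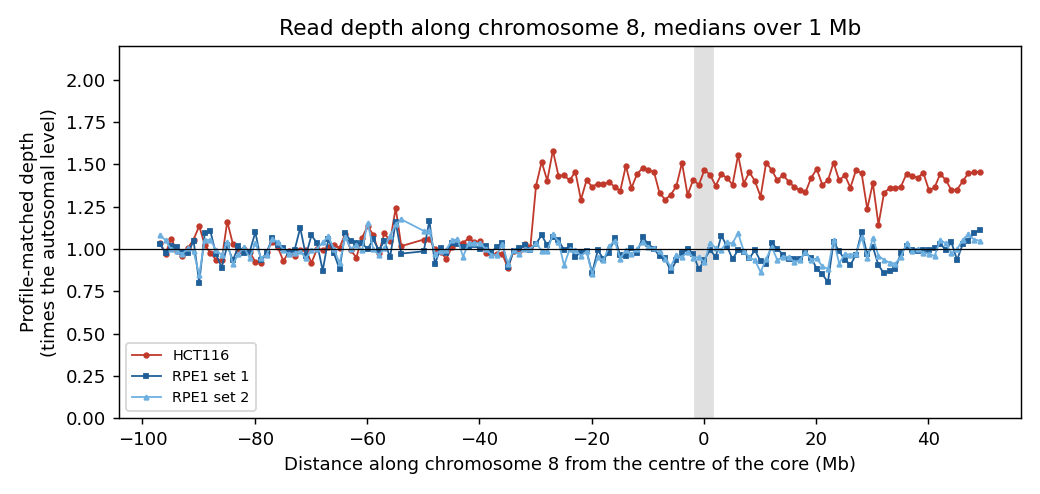
Profile-matched read depth (times the autosomal level, medians over 1 Mb) along chromosome 8 by distance from the centre of the core (Mb), for HCT116, RPE1 set 1 and RPE1 set 2. The grey band is the stretch; HCT116 stands at 1.45 there, against 0.924 and 0.958 in the RPE1 sets, and at 0.997 over the first 40 Mb of the chromosome.

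Other parts of the autosomes had nearly the same 9 shares as the core. Among 50067 overlapping stretches of the same length, the smallest Euclidean distance to the core in the 9 shares was 3.54 percentage points, on chromosome 5 from 109650001 to 110950000, where the median distance of all stretches was 53.0 points. There C held 49.2% in HCT116, against 13.2 and 21.5% in RPE1 sets 1 and 2. The next non-overlapping ones were on chromosome 8 from 31850001 to 33150000, at 4.34 points, and on chromosome 9 from 118050001 to 119350000, at 4.64 points. In the chromosome 8 stretch, C held 49.8% in HCT116, against 13.3 and 21.1% in the RPE1 sets. These stretches were picked for being alike, so their likeness is a description.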

How the data were processed

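Read counts per bin, nearly all of 1 kb, were deposited by the authors for 3 sets of 3 libraries. The build hg19 and the tools Bowtie2, SAMtools 1.2 and bedtools 2.25 are named, with no role, per the submitters' processing notes. Mapping settings are not given in the sources used here, and per the labels' table names duplicate reads were removed. Bins were summed with Python 3.11.15, numpy 2.4.6 and pandas 2.3.3 over autosomes and X. Each library was scaled to the mean total of its set, and shares were taken within sets. Windows needed reads in at least 50% of bins and 30 reads in each set. Gene spans on hg19 came with the choice of the region, and GDF6 was read 20 kb to each side of its point. Profile-matched depth sorts autosomal 50 kb windows of a set into 50 classes of C share and divides each window by its class median. The functions were tested on simulated data. The members and lists were chosen with earlier results of these data known. Lists of related genes, and sequences, were not analysed here. Named windows were the highest and lowest in C share per set and those at the ends of the core; runs, gene parts and local highs were chosen after the values were seen.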

Additional observations from a re-analysis of the deposited data

Results flagged for a closer look

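Over GDF6, SDC2 and CPQ, each taken as a whole, library C exceeded library A in HCT116 and fell short of it in both RPE1 sets. This difference between the lines was not tested, since it chose the region. The log2 of C over A over the core was 1.47 in HCT116, against -1.35 and -0.68 in RPE1 sets 1 and 2. Over GDF6 it was 1.61, against -3.13 and -1.65. Over SDC2 it was 1.66, against -1.002 and -0.64. Over CPQ it was 1.60, against -0.30 and -0.13, so that C and A were nearly equal in RPE1 there. Between GDF6 and SDC2 it was 1.27, against -2.44 and -1.06. In 24 windows of 50 kb, between 96700001 and 98150000, C was above A in HCT116 and below A in both RPE1 sets. In 3 windows, between 98250001 and 98400000, the signs were opposite, with C below A in HCT116 and above A in both RPE1 sets. In these windows C held 27.18 to 29.22% and A 22.06 to 25.29% in RPE1 set 1. RPE1 set 2 had 24.97 to 33.8% in C and 21.05 to 23.78% in A, and some of these gaps were small. The share of all windows with either pattern of signs is not given here, so nothing further is read from these 2 counts. The depth of the stretch was 1.54 ± 0.039 times higher in HCT116, and its part in these signs was not tested.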

How the results depend on the processing

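None of the 73 alternative values was opposite in sign to the value reported, but the window counts and depth ratios among them cannot change sign. By size, 25 of the 73 were classed as moved and 48 as the same. The differences in C share given in other units are among those classed as moved. With median-ratio scaling the HCT116 minus RPE1 difference in C share was 38.8 points over the core, 43.4 over GDF6, 41.6 over SDC2 and 32.3 over CPQ, and the cause was not tested. Other scales give other units and are not compared in size: the log2 ratio of C over A differed by 2.48, 4.00, 2.48 and 1.81, and genome-wide percentiles by 40.2, 53.8, 43.4 and 31.1 points. Without 1 RPE1 set the differences ranged from 28.3 to 35.8, 30.2 to 39.3, 33.9 to 36.99 and 25.4 to 28.2 points. With 2 RPE1 sets, leaving 1 out moves such a mean by less than their SD by construction, so these ranges are no sign of stability. Without 1 RPE1 set, the 20 kb windows called higher in C ranged from 72 to 115 and the 50 kb windows from 29 to 46, the higher counts without RPE1 set 2. Under the other settings the 20 kb count was 56 (at 20 points) to 91 (with percentiles). The 1 window called lower became 3 after thinning to 6041133 reads, 3 with a log2 ratio, 6 with percentiles, 5 at 5 points, and 0 at 20 points or with 50 or 100 kb windows; without 1 RPE1 set it was 3 to 4, and for 50 kb windows 0 to 1. The high-side position at 50% A moved to -57.5 kb with 3 windows averaged, a setting added after seeing the data, and ranged from -32.0 to -9.00 kb without 1 RPE1 set. The depth ratio ranged from 1.36 to 1.88 without 1 RPE1 set. No paired analysis was possible because no test was made and the table columns are not named by fraction. Depth limits single 20 kb windows, which held 200 to 271 HCT116 reads where named.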
